A study of Drosophila melanogaster with 80 samples.

Results

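Sons of flies fed a high-sugar diet (HSD) were set against sons of flies fed a control diet (CD), where both kinds of son ate the high-sugar diet themselves. The comparison used 8 of the 80 whole-fly microarrays of the series, chosen by their labels: 4 arrays of HSD F1 males derived from HSD F0 males and 4 of HSD F1 males derived from CD F0 males. F0 is the generation whose diet differed and F1 its offspring. HSD held 1 M sucrose and CD 0.15 M sucrose, and all flies were Oregon R, a wild-type laboratory strain of Drosophila melanogaster. The sons were unmated adults, 3 to 4 days old when their 14 days on the diet began, and were kept at 25 °C with 30 flies per vial. All 8 arrays therefore share the adult high-sugar diet, and by their labels the groups differ in the diet of the F0 male. What the F0 mothers ate is not given in the labels. The remaining arrays cover the F0 flies and other F1 and F2 males and females, and some of them are used below to place the sons.

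From each sample, 250 ng of RNA from whole flies was labelled and hybridised to an Affymetrix Drosophila Genome 2.0 array, which reads transcripts near their 3' ends. Nothing in the labels tells if replicates within a group had different vials or fathers. Each p-value then covers no more than the scatter among these 8 samples, and that scatter may be technical. In whole flies, fewer cells of a type and less RNA per cell cannot be told apart. Values are log2 intensities, and a change is the mean log2 value in sons of HSD-fed fathers minus that in sons of CD-fed fathers.

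Chronic excess sugar is a model of diet-induced metabolic disease in flies. Sugar is sensed in the fat body and gut, where transcription factors such as the repressor sugarbabe adjust digestive enzymes and fat synthesis, and insulin-like peptides and adipokinetic hormone set how fuel is stored or spent. Fly blood cells, the hemocytes, are mostly phagocytic plasmatocytes with a few crystal cells that carry melanin-forming enzymes. Basement membranes are sheets of laminin, collagen IV, perlecan and nidogen around organs, and hemocytes and the fat body are known makers of their collagen IV.

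No single gene passed the test: 0 of 10943 genes (0%) differed between the groups at an adjusted p under 0.05 with limma, and the smallest adjusted p was 0.114. At an unadjusted p under 0.05, 1273 genes (11.6%) differed, of which 629 (5.75%) were higher and 644 (5.89%) lower in sons of HSD-fed fathers. Changes were small: the central 95% of genes lay between -0.16 and 0.16 on the log2 scale, and the median change was 0.002. Genes of hemocytes and of the basement membrane were mostly lower in sons of HSD-fed fathers, and genes of mitochondrial respiration and of the mitochondrial ribosome were mostly higher, by smaller amounts.

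The number of called genes depended on the fit. With a trended robust prior limma called 101 genes (44 higher and 57 lower), in 1 fit of all 80 arrays 33 genes (4 higher and 29 lower), with a stricter filter on dim genes, which tests fewer genes, 21 genes (10 higher and 11 lower), and in 1 fit of the 16 F1 male arrays 21 genes (7 higher and 14 lower). LanA, CG8661 and Sting were called in all 4 of these fits. Sting (change -0.30, adjusted p = 0.124), an innate immune adaptor of cyclic dinucleotide sensing, was named here after its values were seen. Leaving out 1 array called 0 genes for 7 of the 8 arrays, and without replicate 2 of the CD-father group it called 2, yellow-g (-0.79, adjusted p = 0.0296) and CG13026 (-0.86, adjusted p = 0.0027), the second also named after its values were seen.

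The 8 arrays were alike in overall signal. Their medians lay between 7.29 and 7.34, and the Pearson correlations of array pairs across genes lay between 0.9974 and 0.9988. Transcripts made mainly in females averaged 5.42 in replicate 4 of the HSD-father group and 5.47 in replicate 4 of the CD-father group, and 5.08 to 5.22 on the other arrays. Counts below are also given without both replicate 4 arrays where these moved them by over 1.5 times. Of small marker sets for other tissues, 4 fat body markers averaged 11.51 to 11.56 in sons of HSD-fed fathers and 11.58 to 11.76 in sons of CD-fed fathers, and 3 midgut protease markers averaged 10.71 to 10.83 in sons of HSD-fed fathers and 10.87 to 10.93 in sons of CD-fed fathers. Longer lists of the same tissues did not share this: 19 fat body genes had a median change of 0.03 with 13 positive, 28 midgut proteases one of 0.05 with 20 positive, and the array means of both lists overlapped between groups. Flight muscle markers averaged 11.74 to 11.94 in sons of HSD-fed fathers and 11.54 to 11.75 in sons of CD-fed fathers, so these ranges overlapped narrowly. Accessory gland markers averaged 12.5 to 12.57 in sons of HSD-fed fathers and 12.45 to 12.48 in sons of CD-fed fathers, while eye, neuron, testis and ovary sets overlapped or touched. Their part in the gene group differences was not tested.

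Hemocyte genes were lower in sons of HSD-fed fathers. Of 26 hemocyte genes tested, 23 had a negative change, where 48.4% of all genes did, and the median change was -0.20. At an unadjusted p under 0.05, 18 were lower and 1 was higher, against 5.89% and 5.75% of all genes. In 12 of them all 4 arrays from sons of HSD-fed fathers lay below all 4 from sons of CD-fed fathers, as did 3.82% of all genes, and in 0 did they lie above. None passed at an adjusted p under 0.05.

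The phagocytic receptors of plasmatocytes were among the lower genes. NimC1, a Nimrod receptor that takes up bacteria, read 9.67, 9.61, 9.60 and 9.58 in sons of HSD-fed fathers and 10.001, 9.91, 9.88 and 10.19 in sons of CD-fed fathers. Its groups did not overlap, and its change was -0.38 (SE 0.06, 95% interval -0.52 to -0.24, adjusted p = 0.119), which is 23.1% lower on a linear scale. The related receptor eater read 9.03, 9.05, 8.96 and 9.06 in sons of HSD-fed fathers and 9.57, 9.22, 9.25 and 9.42 in sons of CD-fed fathers, a change of -0.34 (SE 0.07, adjusted p = 0.14). Every array of the HSD-father group again lay below every array of the CD-father group. NimC4, a receptor for dying cells, read 8.70, 8.75, 8.51 and 8.53 in sons of HSD-fed fathers and 9.48, 8.88, 8.96 and 9.57 in sons of CD-fed fathers. Its change of -0.60 (SE 0.15, adjusted p = 0.194) was the lowest of the hemocyte genes, but replicates 1 and 4 of the CD-father group stood well above replicates 2 and 3.

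Other uptake and surface genes followed the same direction. He, a surface glycoprotein of hemocytes, was dim and read 5.64, 5.77, 5.42 and 5.38 in sons of HSD-fed fathers and 5.95, 5.94, 5.97 and 5.93 in sons of CD-fed fathers (change -0.39, adjusted p = 0.129). NimB5, a secreted Nimrod protein, read 9.48, 9.56, 9.45 and 9.46 in sons of HSD-fed fathers and 9.81, 9.65, 9.72 and 9.95 in sons of CD-fed fathers (change -0.30, adjusted p = 0.129). The scavenger receptor Sr-CI (-0.21, adjusted p = 0.129) and the engulfment receptor drpr (-0.18, adjusted p = 0.181) were lower with no overlap between groups. NimB1 (-0.25), NimB4 (-0.20) and crq (-0.21), a CD36-like receptor, were lower at an unadjusted p under 0.05 but their groups overlapped. NimC3 was the only hemocyte gene higher at that level (0.14, unadjusted p = 0.0489), and Sr-CIV (0.09) and NimA (0.02) were the other two with a positive change. NimC2 (-0.13), NimB2 (-0.04), Ance (-0.07) and vir-1 (-0.08) did not reach an unadjusted p under 0.05.

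Genes of clotting and melanization cells were lower as well. Hml, hemolectin, a clotting protein and the usual plasmatocyte marker, read 8.31, 8.31, 8.30 and 8.33 in sons of HSD-fed fathers and 8.54, 8.41, 8.44 and 8.63 in sons of CD-fed fathers. The HSD-father arrays were nearly identical, the groups did not overlap, and the change was -0.19 (SE 0.05, adjusted p = 0.197). PPO1, a prophenoloxidase of crystal cells, read 11.21, 11.34, 10.99 and 11.15 in sons of HSD-fed fathers and 11.49, 11.37, 11.54 and 11.70 in sons of CD-fed fathers, a change of -0.35 (SE 0.08, adjusted p = 0.184). PPO2, its partner in crystal cells, differed by -0.26 (adjusted p = 0.209) without overlap, and PPO3, the prophenoloxidase of lamellocytes, by -0.23 with overlap (adjusted p = 0.637). The crystal cell factor lz was also lower without overlap (-0.17, adjusted p = 0.264).

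Regulators of blood cell fate had negative changes from -0.29 to -0.12. The GATA factor srp (-0.15, adjusted p = 0.334) and its co-factor ush (-0.29, adjusted p = 0.194) were lower with overlapping groups, as was the growth factor receptor Pvr (-0.12, adjusted p = 0.351). In the fit of all 80 arrays NimC1, NimC4 and ush passed, each at an adjusted p of 0.027, and 6 hemocyte genes passed with the trended robust prior. The 6 markers Hml, He, NimC1, eater, PPO1 and PPO2 are among the 26 genes counted above. Together they averaged 9.04 to 9.22 in sons of HSD-fed fathers and 9.35 to 9.57 in sons of CD-fed fathers. All 6 were lower at an unadjusted p under 0.05, as were 18 of the whole list of 26 and 5.89% of all genes.

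**Figure D1:**
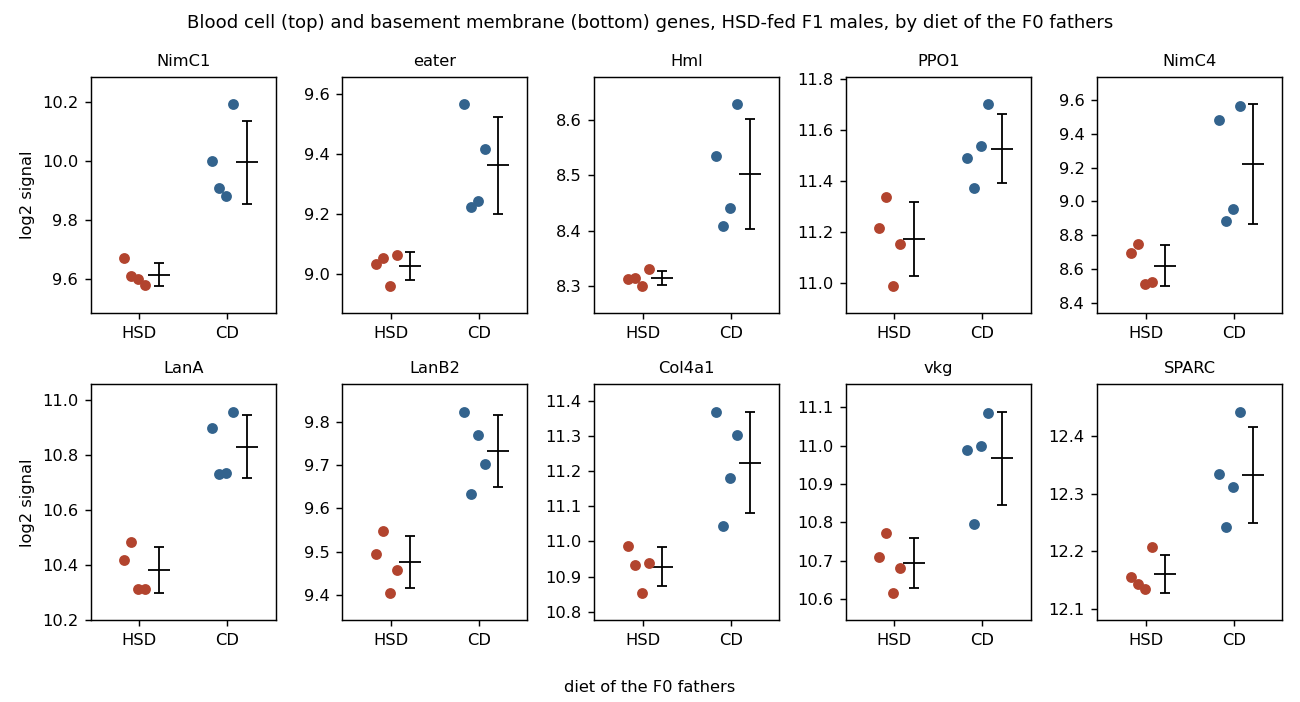
Log2 intensity of 5 hemocyte genes and 5 basement membrane genes on each of the 8 arrays, with sons of HSD-fed fathers left of sons of CD-fed fathers; points are arrays and bars the mean ± SD (n = 4 each). In all 10 genes every point of the HSD-father group lies below every point of the CD-father group. The axes differ between genes, and NimC4 spreads most, from 8.51 to 9.57.

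Basement membrane genes showed the same direction. Of 15 tested, 14 had a negative change and the median was -0.18. At an unadjusted p under 0.05, 12 were lower (5.89% of all genes were) and 0 higher, and in 11 all arrays of the HSD-father group lay below all arrays of the CD-father group (3.82% of all genes). Pxn, a peroxidasin that cross-links collagen IV, is in this list and in the hemocyte list (-0.16, adjusted p = 0.264, groups apart). None of the 15 passed at an adjusted p under 0.05.

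The laminin chains were lower together. LanA, the alpha chain, read 10.42, 10.48, 10.31 and 10.31 in sons of HSD-fed fathers and 10.90, 10.73, 10.73 and 10.96 in sons of CD-fed fathers. Its change was -0.45 (SE 0.06, 95% interval -0.59 to -0.31, adjusted p = 0.114), 26.7% lower on a linear scale, and in the fit of all 80 arrays its adjusted p was 3.82e-04. LanB2, the gamma chain, read 9.49, 9.55, 9.40 and 9.46 in sons of HSD-fed fathers and 9.82, 9.63, 9.77 and 9.70 in sons of CD-fed fathers (change -0.26, SE 0.05, adjusted p = 0.125). Both groups stood apart in each of these genes. LanB1, the beta chain, read 8.78, 9.04, 8.89 and 8.95 in sons of HSD-fed fathers and 9.21, 9.06, 9.07 and 9.21 in sons of CD-fed fathers (change -0.23, adjusted p = 0.209), where the nearest arrays were almost level. The second alpha chain, wb, did not share the shift (-0.02, adjusted p = 0.912).

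Collagen IV and its partners were lower too. Col4a1 read 10.99, 10.93, 10.85 and 10.94 in sons of HSD-fed fathers and 11.37, 11.04, 11.18 and 11.30 in sons of CD-fed fathers (change -0.30, SE 0.07, adjusted p = 0.168). The second collagen IV chain, vkg, read 10.71, 10.77, 10.62 and 10.68 in sons of HSD-fed fathers and 10.99, 10.80, 11.00 and 11.08 in sons of CD-fed fathers (change -0.27, SE 0.06, adjusted p = 0.164). In both chains replicate 2 of the CD-father group came closest to the other group without reaching it. SPARC, a collagen-binding protein, read 12.16, 12.14, 12.14 and 12.21 in sons of HSD-fed fathers and 12.33, 12.24, 12.31 and 12.44 in sons of CD-fed fathers (change -0.17, adjusted p = 0.198). Ppn, papilin, a matrix glycoprotein, read 11.87, 11.92, 11.78 and 11.88 in sons of HSD-fed fathers and 12.32, 12.09, 12.12 and 12.32 in sons of CD-fed fathers (change -0.35, SE 0.06, adjusted p = 0.119). The fly perlecan gene trol differed by -0.19 (adjusted p = 0.194) on its brightest probe set. Its probe sets at levels of 9.10 and 9.13 differed by less, -0.06 and -0.10. Its dim probe sets, at levels up to 5.37, had changes from -0.10 to 0.14.

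Of the enzymes that modify collagen, Plod, a lysyl hydroxylase, differed by -0.15 (adjusted p = 0.206, groups apart) and PH4alphaEFB, a prolyl hydroxylase, by -0.11 (adjusted p = 0.378, groups overlapping). The multiplexin Mp (-0.18, adjusted p = 0.264) overlapped, and the integrin ligand Tig differed by only -0.06 (adjusted p = 0.477). Ndg, nidogen, was dim and had the single positive change of the list (0.06, adjusted p = 0.767). In the fit of all 80 arrays LanA, vkg (adjusted p = 0.00701), Col4a1 (0.0254), LanB2 (0.027) and Ppn (0.027) passed.

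Members of both lists went up and down together from array to array, so they are not independent readings. The mean over the hemocyte list was 8.67, 8.75, 8.63 and 8.64 in sons of HSD-fed fathers and 8.92, 8.78, 8.82 and 8.95 in sons of CD-fed fathers. The mean over the basement membrane list was 9.63, 9.70, 9.59 and 9.62 in sons of HSD-fed fathers and 9.89, 9.73, 9.82 and 9.86 in sons of CD-fed fathers. In both lists replicate 2 was the highest of the HSD-father arrays and the lowest of the CD-father arrays and the groups were nearly level there. Leaving out any 1 array kept the hemocyte median between -0.21 and -0.17 and the basement membrane median between -0.20 and -0.16.

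**Figure D2:**
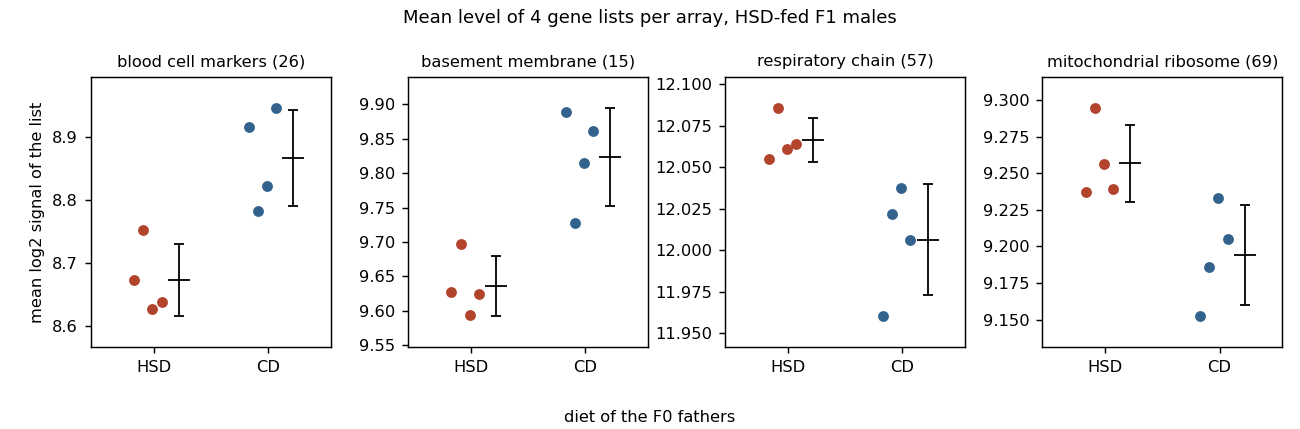
Mean log2 intensity over the tested members of 4 gene lists on each array, sons of HSD-fed fathers left of sons of CD-fed fathers. The hemocyte and basement membrane means lie lower in all 4 arrays of the HSD-father group (up to 8.75 against at least 8.78, and up to 9.70 against at least 9.73), and the means of both mitochondrial lists lie higher.

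Cell receptors for the matrix had small changes. Among 15 integrin and adhesion genes the median change was -0.07, with 13 negative, 3 lower and 1 higher at an unadjusted p under 0.05, against 5.89% and 5.75% of all genes. The integrin subunits Itgbn (-0.15) and mew (-0.14) and the adhesion adaptor Vinc (-0.08), vinculin, were the 3 lower ones, and Ilk, integrin-linked kinase, was the higher one (0.08). Among 15 growth factor genes 4 were lower (5.89% of all genes) and 0 higher at that level. The tumour necrosis factor ligand egr read 9.65, 9.70, 9.63 and 9.57 in sons of HSD-fed fathers and 9.96, 9.82, 9.80 and 9.94 in sons of CD-fed fathers (change -0.24, SE 0.05, adjusted p = 0.125), with no overlap. Pvf2, a ligand of Pvr that drives hemocyte growth in larvae, was dim and overlapped (-0.36, adjusted p = 0.321), as did the BMP ligand dpp (-0.17, adjusted p = 0.329).

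Genes of mitochondrial respiration were higher in sons of HSD-fed fathers by small amounts. Of 57 oxidative phosphorylation genes, 50 had a positive change, where 51.6% of all genes did, and the median was 0.07. At an unadjusted p under 0.05, 21 were higher (5.75% of all genes) and 0 lower, and in 21 all arrays of the HSD-father group lay above all arrays of the CD-father group (3.63% of all genes). None passed at an adjusted p under 0.05.

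Complex I, the NADH dehydrogenase, held many of these members. All 27 of its tested subunits had a positive change, with a median of 0.08 and a range from 0.02 (ND-B16.6) to 0.16 (ND-PDSW), and 15 reached an unadjusted p under 0.05. ND-13B read 10.97, 11.02, 10.98 and 10.98 in sons of HSD-fed fathers and 10.78, 10.84, 10.84 and 10.88 in sons of CD-fed fathers (change 0.15, SE 0.03, adjusted p = 0.129). The subunits ND-19 (0.13, adjusted p = 0.249) and ND-B17 (0.10, adjusted p = 0.229) also stood apart. Complexes II, III and IV held 3, 7 and 8 tested genes, of which 3, 5 and 7 had a positive change. The 12 ATP synthase genes had a median of 0.03, with 8 positive and 1 higher at an unadjusted p under 0.05. No test of the difference between complexes was made.

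The mitochondrial ribosome shared the direction. Of 69 genes, 65 had a positive change (51.6% of all genes) with a median of 0.06. At an unadjusted p under 0.05, 19 were higher (5.75% of all genes) and 0 lower, and 14 stood apart upward (3.63% of all genes). The large subunit held 44 of these genes (41 positive) and the small subunit 25 (24 positive). mRpS21 read 10.76, 10.86, 10.77 and 10.71 in sons of HSD-fed fathers and 10.51, 10.57, 10.63 and 10.55 in sons of CD-fed fathers, a change of 0.21 (SE 0.04, adjusted p = 0.125) without overlap. The large subunit genes mRpL41 (0.16), mRpL52 (0.15) and mRpL36 (0.14) followed. The 28 genes of the cytosolic ribosome did not share the shift: their median was 0.004, and 0 reached an unadjusted p under 0.05 in either direction.

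These mitochondrial counts varied with single arrays. Without 1 array the median change stayed between 0.05 and 0.08 for oxidative phosphorylation and between 0.04 and 0.07 for the mitochondrial ribosome. Without 1 array, the number of oxidative phosphorylation genes higher at an unadjusted p under 0.05 ranged from 10 (without replicate 1 of the CD-father group) to 27, and that of mitochondrial ribosome genes from 8 (without replicate 2 of the HSD-father group) to 23. Without both replicate 4 arrays they were 8 and 12. Without 1 array the count of lower hemocyte genes stayed between 16 and 19, and that of lower basement membrane genes between 11 and 12.

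**Figure D3:**
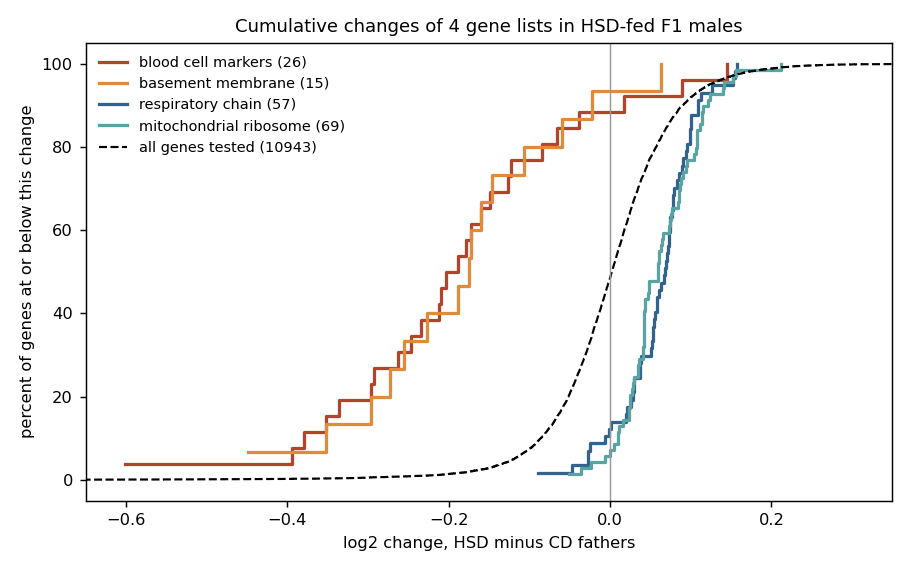
Cumulative share of genes against the change (log2, sons of HSD-fed fathers minus sons of CD-fed fathers) for 4 lists and for all 10943 genes. The hemocyte and basement membrane curves lie left of the all-gene curve (medians -0.20 and -0.18), and both mitochondrial curves lie a little to its right (medians 0.07 and 0.06).

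By the mean over a list's members, all arrays of the HSD-father group lay below all of the CD-father group in 4 of the 45 gene lists examined and above them in 6. The lower ones were the hemocyte, basement membrane, integrin and adhesion (difference of means -0.08) and secretory pathway lists (-0.03), and the higher ones were oxidative phosphorylation (0.06), mitochondrial ribosome (0.06), sugar sensing (0.07), glycolysis and pentose phosphate (0.03), lipid breakdown (0.03) and proteasome (0.03). Of the 45 lists, 41 had a median change between -0.1 and 0.1. Below that range were the hemocyte list, the basement membrane list and the Turandot list, which held only 2 tested stress genes; its member TotC differed by -0.83 with an SE of 0.41 and overlapping groups. Above it was the heat shock list of 7 genes, where Hsp26 (0.46) and Hsp68 (0.50) overlapped between groups and 0 members reached an unadjusted p under 0.05. Clotting and melanization enzymes other than the hemocyte genes (14 tested, median -0.01), immune signalling (25, median -0.01) and antimicrobial peptides (17, median 0.05) did not share the hemocyte shift. Among the peptides, Drsl5, a drosomycin-like gene, differed by 0.16 (adjusted p = 0.125).

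**Figure D4:**
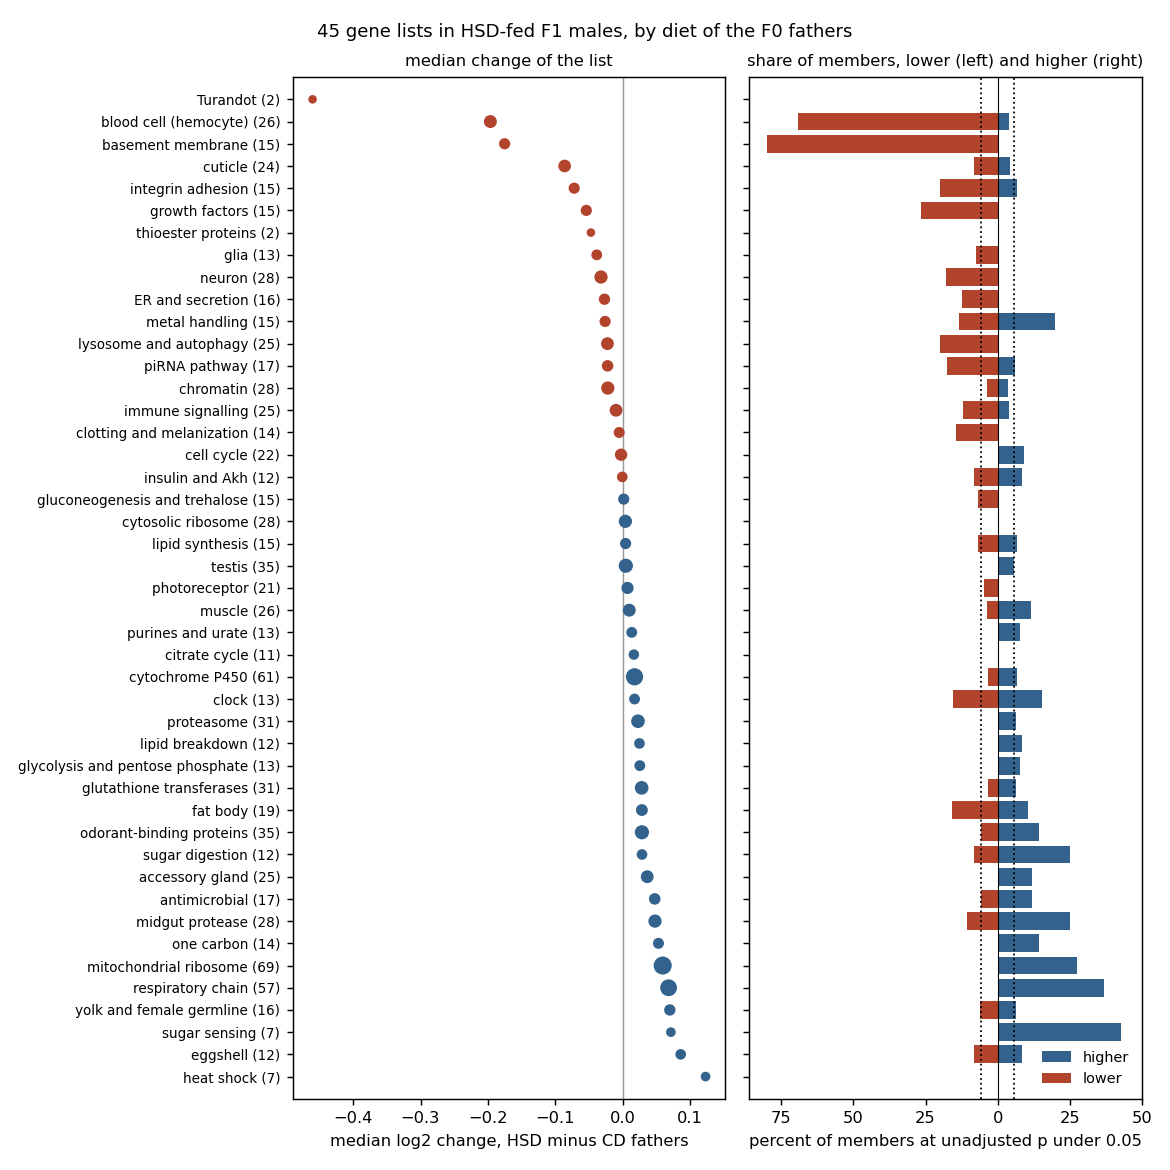
Each of the 45 gene lists, with its number of tested genes in brackets: median change on the left (log2), and on the right the percent of members at an unadjusted p under 0.05, lower to the left and higher to the right, with dotted lines at the shares over all genes (5.89% and 5.75%). On the lower side the hemocyte list has 18 of 26 members and the basement membrane list 12 of 15. On the higher side the small sugar sensing list has 3 of 7, oxidative phosphorylation 21 of 57, the mitochondrial ribosome 19 of 69 and midgut proteases 7 of 28.

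Sugar sensing genes gave a mixed picture. The zinc finger repressor sug, sugarbabe, read 9.97, 10.02, 10.26 and 10.23 in sons of HSD-fed fathers and 9.89, 9.96, 9.46 and 9.78 in sons of CD-fed fathers, a change of 0.35 (SE 0.11, adjusted p = 0.269). The groups stood narrowly apart, and replicate 3 of the CD-father group was the lowest. The activin ligand daw was higher by 0.13 (adjusted p = 0.198, groups apart), its receptor babo differed by -0.09 (adjusted p = 0.486), and the sugar-responsive factor cbt by 0.10 with overlap (adjusted p = 0.389). Of 7 genes in this list 3 were higher at an unadjusted p under 0.05, against 5.75% of all genes.

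Sugar digestion and fuel enzymes hardly differed. Among 12 sugar digestion genes, the maltases Mal-A3 (0.14), Mal-A4 (0.12) and Mal-A5 (0.10) were higher and Mal-B1 was lower (-0.15) at an unadjusted p under 0.05, all with overlap. Amyrel, an amylase relative, differed by 0.22 with overlap, and the glucosidase tobi by 0.01 (95% interval -0.06 to 0.09). The hexokinase gene Hex-C (0.01, interval -0.06 to 0.09), the gluconeogenic gene Pepck1 (-0.01, interval -0.07 to 0.06), the fat lipase bmm (0.01, interval -0.08 to 0.11) and the fatty acid synthase FASN1 (0.01, interval -0.05 to 0.07) were within these intervals of no change. Its relatives FASN2 (0.10, adjusted p = 0.272) and FASN3 (-0.13, adjusted p = 0.209) stood apart in opposite directions.

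Hormone genes of fuel use showed no shift as a list, with a median change of -0.0007 over 12 tested. In 1 the groups stood apart downward and in 1 upward, against 3.82% and 3.63% of all genes. AkhR, the receptor of adipokinetic hormone, which mobilises stored fuel, read 10.33, 10.32, 10.35 and 10.32 in sons of HSD-fed fathers and 10.56, 10.50, 10.42 and 10.51 in sons of CD-fed fathers (change -0.17, SE 0.03, adjusted p = 0.129). Ilp2, an insulin-like peptide of the brain, was higher by 0.12 (adjusted p = 0.202). The gut lipase mag, magro, was higher by 0.20 (adjusted p = 0.188).

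Males of the F0 generation that ate HSD themselves differed strongly from those that ate CD: 3359 of 10976 genes (30.6%) passed at an adjusted p under 0.05, on other arrays than those of the sons. There 79 genes that were also tested in the sons were called with a change over 1 on the log2 scale. Of these, 41 had the same sign in sons and 38 the opposite one. At an unadjusted p under 0.05 in sons, 16 had the same sign and 8 the opposite one. Of all genes, 11.6% reached that p in sons, in either direction. The gene groups above ran otherwise in F0 males. The 15 basement membrane genes had a median of 0.14 there, with 11 positive (54.6% of all genes), 5 called higher (19.5% of all genes) and 2 called lower (11.1% of all genes). The 26 hemocyte genes tested in sons had a median of -0.01, with 2 called higher and 2 lower. Oxidative phosphorylation and mitochondrial ribosome genes had medians of -0.04 and -0.06, with 46 of 57 and 52 of 69 negative (45.4% of all genes) and 4 and 11 called lower. The difference was 0.35 in sons and 1.61 in F0 males for sug, 0.13 in sons and 1.49 in F0 males for daw, and 0.20 in sons and 1.24 in F0 males for mag. It was 0.23 (adjusted p = 0.198) in sons and 1.01 in F0 males for the sterol carrier Npc2d, and 0.29 (adjusted p = 0.124) in sons and 1.82 in F0 males for CG12057. AkhR ran the other way, with -0.17 in sons and 1.06 in F0 males, as did the gut protease Jon99Fi with -0.55 in sons and 2.49 in F0 males. Several genes with large F0 changes were close to level in the sons. CG12374 differed by 0.03 in sons and 3.73 in F0 males, CG3999 by -0.01 in sons and -2.49 in F0 males, and the glutathione transferase GstD8 by 0.08 in sons and -1.81 in F0 males. Groups of sons overlapped for Npc2e (0.18 in sons, -2.50 in F0 males), for Amyrel (0.22 in sons, -1.52 in F0 males) and for the metallothionein MtnB (0.39 in sons, adjusted p = 0.186; -2.37 in F0 males).

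Outside these lists, the genes with the smallest p were a mixed set. Those lower in sons of HSD-fed fathers included phu, which read 9.46, 9.34, 9.33 and 9.26 against 9.78, 9.71, 9.82 and 9.65 in sons of CD-fed fathers (change -0.39, SE 0.05, adjusted p = 0.114). The receptor gene mthl2, of the methuselah family, read 9.71, 9.86, 9.63 and 9.50 in sons of HSD-fed fathers and 10.55, 10.10, 10.21 and 10.51 in sons of CD-fed fathers (change -0.67, SE 0.11, adjusted p = 0.119). In both genes the groups were well apart. The dim yellow-g, known from the eggshell, differed by -0.71 (adjusted p = 0.114), and Adgf-A, an adenosine deaminase, by -0.24 (adjusted p = 0.114). CG30187 (-0.36), CG4950 (-0.31), CG42788 (-0.26), CG40198 (-0.23) and CG6912 (-0.19) were lower with groups apart and adjusted p-values from 0.114 to 0.119.

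On the higher side, the zinc finger factor odd read 8.49, 8.55, 8.56 and 8.43 in sons of HSD-fed fathers and 8.21, 8.29, 8.21 and 8.24 in sons of CD-fed fathers (change 0.27, SE 0.04, adjusted p = 0.114). MtnC, a metallothionein that binds heavy metals, read 10.83, 11.03, 10.83 and 10.87 in sons of HSD-fed fathers and 10.41, 10.55, 10.62 and 10.46 in sons of CD-fed fathers (change 0.38, SE 0.06, adjusted p = 0.114). TpnC4, a troponin C of flight muscle, read 11.91, 12.09, 12.01 and 11.91 in sons of HSD-fed fathers and 11.68, 11.69, 11.60 and 11.76 in sons of CD-fed fathers (change 0.30, adjusted p = 0.119). All 3 stood clear of the other group. TpnC4 is also 1 of the flight muscle markers given above, and the sarcomere gene sals was higher by 0.13 (adjusted p = 0.198), while the 26 muscle genes together had a median of 0.01.

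CG8661 read 9.01, 9.11, 9.03 and 9.13 in sons of HSD-fed fathers and 8.51, 8.76, 8.81 and 8.68 in sons of CD-fed fathers (change 0.38, SE 0.06, adjusted p = 0.119). It was the only named gene on the higher side that passed in the fit of all 80 arrays (adjusted p = 0.0254). PH4alphaNE1, a prolyl hydroxylase relative, was dim and higher by 0.31, and Rcd-1r (0.25), CG33307 (0.24), CG10041 (0.21), CG17784 (0.20) and CG5597 (0.18) were higher with groups apart and adjusted p-values from 0.114 to 0.124.

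Digestive proteases and odorant binding proteins held members on both sides, none of which passed at an adjusted p under 0.05. Jon99Fi read 9.65, 9.77, 9.52 and 9.84 in sons of HSD-fed fathers and 10.29, 10.51, 10.23 and 9.96 in sons of CD-fed fathers (change -0.55, SE 0.11, adjusted p = 0.129). Its relatives Jon66Ci (-0.36, adjusted p = 0.129) and Jon66Cii (-0.25, adjusted p = 0.232) were lower and the trypsin thetaTry higher (0.23, adjusted p = 0.194), and of 28 midgut proteases 7 were higher and 3 lower at an unadjusted p under 0.05, against 5.75% and 5.89% of all genes. Members of the Jonah family are close copies, so their probe sets may share signal. Obp28a (0.23, adjusted p = 0.119) and Obp56e (0.20, adjusted p = 0.129) were higher and Obp83cd lower (-0.34, adjusted p = 0.125), in a list of 35 with a median of 0.03.

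Male reproductive genes were close to level. The 35 testis genes had a median change of 0.005, with Mst87F, a sperm tail protein gene, at -0.01, and the 25 accessory gland genes one of 0.04. The seminal protease inhibitor Acp62F was higher by 0.15 (adjusted p = 0.199) and SP, the sex peptide, by 0.09 (adjusted p = 0.421). The yolk protein genes Yp1 (-0.05), Yp2 (-0.02) and Yp3 (-0.06) and the vitelline membrane gene Vm26Aa (0.15) did not differ beyond their spread.

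The same question was asked of 3 other sets of flies whose arrays are all distinct from those of the sons above. They are CD-fed F1 males, HSD-fed F1 females and HSD-fed F2 males, each with 4 arrays of descendants of HSD-fed F0 males and 4 of descendants of CD-fed F0 males. Each set of 8 is in a labelled batch of its own, so batch cannot be told apart from sex, own diet or generation. Several of these arrays held transcripts of the opposite sex, with a mean over 0.5 above that of the set's lowest array: replicates 1 and 4 of CD-fed F1 males, replicate 1 of HSD-fed F1 females and replicates 1, 2 and 4 of HSD-fed F2 males, all from the HSD-father group. None of the 8 arrays of HSD-fed sons passed this limit. Their replicate 4 arrays nevertheless lay 0.34 (HSD-father group) and 0.39 (CD-father group) above the lowest array in female transcripts. Replicate 3 of the HSD-father group of HSD-fed F2 males stayed under this limit, at 0.38 above the lowest array. The CD-father arrays of that set lay at most 0.02 above it. Leaving out arrays by this limit therefore does not free the F2 set of female transcripts. With all arrays, 487 genes (4.5%) were called in CD-fed F1 males, 424 (4.08%) in HSD-fed F1 females and 22 (0.2%) in HSD-fed F2 males. Without the arrays that stood apart, 59 genes were called in CD-fed F1 males, 262 in HSD-fed F1 females and 5 in HSD-fed F2 males. The 5 rested on 1 array left in the HSD-father group and were CycB, Yp1, Yp2, dhd and osk, genes of yolk and the germline that were named here after their values were seen.

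HSD-fed daughters showed the lower hemocyte and basement membrane genes, and there single genes passed the test. Of the 26 hemocyte genes 19 had a negative change (median -0.12, 49.4% of all genes were negative) and 7 were called lower, and of the 15 basement membrane genes 14 had a negative change (median -0.18) and 7 were called lower, where 1.08% of all genes in daughters were called lower. NimC4 fell by 0.99 (adjusted p = 0.00705), PPO1 by 0.56 (0.0231), PPO2 by 0.52 (0.0282), eater by 0.46 (0.0118), NimC1 by 0.43 (0.023), Hml by 0.35 (0.0118) and NimB5 by 0.29 (0.0133) in daughters. Ppn fell by 0.45 (0.00649), LanA by 0.36 (0.0113), Col4a1 by 0.34 (0.0112), vkg by 0.33 (0.0135), SPARC by 0.22 (0.0312) and LanB2 by 0.20 (0.0213). The ligands egr (-0.29, adjusted p = 0.00453) and Pvf2 (-0.58, adjusted p = 0.042) fell as well. Across the 40 genes of both lists the changes in sons and daughters had a Pearson correlation of 0.852, given as a description because genes of a list move together. Without the array that held opposite-sex transcripts, 262 genes were called in either direction, and 5 hemocyte and 5 basement membrane genes were called lower. The share of all genes called lower in that fit was not counted.

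Of the mitochondrial lists, the 57 oxidative phosphorylation genes had a median change of 0.08 in daughters, with 56 positive (50.6% of all genes were) and 13 called higher (3% of all genes were), but the 69 mitochondrial ribosome genes had a median of -0.004 there, with 0 called. In CD-fed F1 males the oxidative phosphorylation median was 0.04 with 45 of 57 positive and the mitochondrial ribosome median 0.07 with 58 of 69 positive (52.6% of all genes were), and 1 gene of each list was called higher (3.2% of all genes were). In HSD-fed F2 males the medians were 0.06 and 0.09, with 51 of 57 and 65 of 69 positive (53.1% of all genes were) and 0 called. With all arrays, most members of both lists were thus positive in CD-fed F1 males and HSD-fed F2 males as well. By the tests of the difference 0 members were called between HSD-fed F1 males and either set. Of all genes, 3.76% were called against CD-fed F1 males and 0.126% against HSD-fed F2 males. Without the arrays that held opposite-sex transcripts, the medians were 0.02 and 0.04 in CD-fed F1 males, with 0 called higher. They were 0.03 and 0.04 in HSD-fed F2 males, with 1 array left in the HSD-father group. In daughters 8 oxidative phosphorylation genes were then called higher, where 262 of all genes were called in either direction.

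In the other two sets the hemocyte and basement membrane medians lay near or above 0. In CD-fed F1 males 22 of the 26 hemocyte genes were tested and had a median of 0.03 with 9 negative (47.4% of all genes were), and the basement membrane genes a median of 0.10, with SPARC the 1 gene called higher (0.27, adjusted p = 0.0398), as 3.2% of all genes were. In HSD-fed F2 males the medians were -0.04 and 0.02, with 0 of 26 and 0 of 15 called, where 0.2% of all genes were. Without the arrays that held opposite-sex transcripts the hemocyte and basement membrane medians were 0.04 and 0.05 in CD-fed F1 males. In HSD-fed F2 males, with 1 array left in the HSD-father group, they were 0.03 and 0.06.

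**Figure D5:**
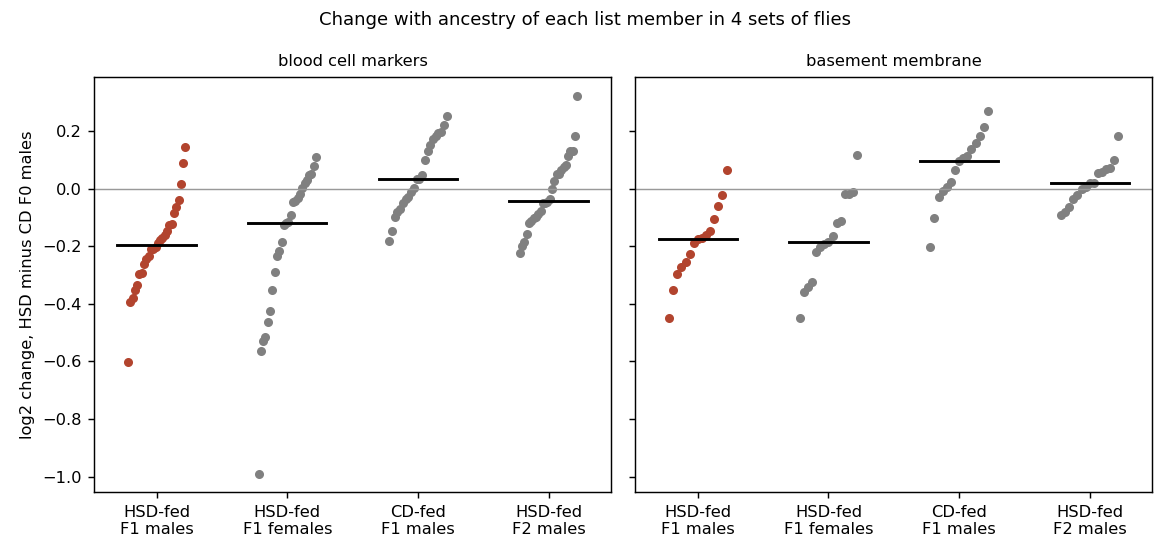
Change (log2, HSD-father minus CD-father group) of each hemocyte and basement membrane gene in HSD-fed F1 males, HSD-fed F1 females, CD-fed F1 males and HSD-fed F2 males; points are genes and bars medians. The points lie mostly below 0 in HSD-fed F1 males (medians -0.20 and -0.18) and HSD-fed F1 females (-0.12 and -0.18), and around or above 0 in CD-fed F1 males (0.03 and 0.10) and HSD-fed F2 males (-0.04 and 0.02).

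The difference itself was tested gene by gene. Between HSD-fed and CD-fed F1 males the father's-diet change differed in 419 of 11157 genes (3.76%), and it was lower in HSD-fed males in 312 (2.8%). Among these were 5 of 27 hemocyte genes, NimC1 (-0.55, adjusted p = 0.0358), NimC4 (-0.73), NimB5 (-0.52), PPO2 (-0.45) and Ance (-0.25), and 5 of 15 basement membrane genes, LanA (-0.63, SE 0.11, adjusted p = 0.00581), vkg (-0.48), SPARC (-0.44), Col4a1 (-0.43, adjusted p = 0.0111) and trol (-0.35). Part of each of these differences was a positive change in CD-fed sons, from 0.13 (NimC4) to 0.27 (SPARC). For Ance the change was -0.07 in HSD-fed sons and 0.18 in CD-fed sons, and for SPARC -0.17 and 0.27. The hemocyte calls were sensitive to single arrays: of the 16 fits without 1 array, the call was lost in 10 for NimC1, 10 for NimC4 and 12 for PPO2 (adjusted p up to 0.105), and in 0 for NimB5, Ance and the 5 basement membrane genes. PPO2 did not pass without the filter on dim genes (adjusted p = 0.0553) or with quantile normalization (0.0669), and with the mean of all probe sets the difference for trol was -0.09 (adjusted p = 0.398). The gene phu differed by -1.04 (adjusted p = 2.51e-05): it was lower with HSD-fed fathers in HSD-fed sons and rose by 0.64 in CD-fed sons (adjusted p = 0.00108). Without the opposite-sex arrays 135 genes were called, and 5 named genes no longer passed while their differences stayed close in size: Col4a1 (-0.37, adjusted p = 0.0693), trol (-0.30, 0.0707), Ance (-0.23, 0.0996), egr (-0.26, 0.145) and MtnC (0.38, 0.0953).

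Against daughters, the change differed in 109 of 11317 genes (0.963%), of which 0 were hemocyte or basement membrane genes. The differences were -0.09 for LanA (95% interval -0.27 to 0.10) and 0.05 for NimC1 (interval -0.18 to 0.28), and that for Hml was 0.16 (interval 0.006 to 0.32, adjusted p = 0.366). Sugarbabe differed between the sexes: sug was higher by 0.35 in sons and fell by 0.25 in daughters (difference 0.60, adjusted p = 0.0407), and the fatty acid synthase FASN2 was higher by 0.10 in sons and rose by 0.46 in daughters (difference -0.36, adjusted p = 0.00654). MtnC rose by 0.87 in daughters, more than the 0.38 in sons (difference -0.49, adjusted p = 0.0252). Without the opposite-sex array 52 genes were called, and the difference for sug was 0.63 (adjusted p = 0.0609). Of the 16 fits without 1 array, the call was lost in 10 for sug and 7 for MtnC.

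Against HSD-fed F2 males, the change differed in 14 of 11076 genes (0.126%). The 14 included phu (-0.78, adjusted p = 7.87e-04), Jon66Ci (-0.77, adjusted p = 0.00398), yellow-g (-0.78, adjusted p = 0.034), odd (0.55, adjusted p = 0.0126) and the yolk protein genes Yp1, Yp2 and Yp3, and LanA differed by -0.41 without passing (adjusted p = 0.251). The call for yellow-g was lost in 10 of 16 fits without 1 array. Without the arrays over the limit for opposite-sex transcripts, 1 array was left in the HSD-father group of F2 males. It still lay 0.38 above the set's lowest array in female transcripts. The differences were then -0.67 for phu, -0.77 for Jon66Ci, -0.74 for yellow-g and 0.64 for odd. That for CG14419, a gene named here after its values were seen, was 0.77.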

How the data were processed

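The deposited value table holds log2 probe set intensities of 80 arrays, made by the authors with RMA, a background correction, quantile normalization and probe summary, per the submitters' processing notes, which also name limma; versions and the array's genome build are not given in the sources used here. Each set of 8 arrays is 1 batch of the labels and has its own value distribution, so tests lie within a set and a difference between sets is one of within-set changes.

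Of 18952 probe sets, 183 were controls, 402 carried several symbols and 4720 none, and these were left out; 13647 had 1 symbol. Entrez identifiers of 13544 matched the RefSeq gene table, and 0 symbols were updated. The brightest probe set on average stood for each of 11982 genes, 1094 of which had several. Genes under the 25th percentile of mean intensity in a set were not tested. No floor or pseudocount was used. The groups of 4 were compared with limma 3.58.1 in R 4.3.3 (lmFit and eBayes, Benjamini-Hochberg over all genes tested), also tested on simulated data. Differences between sets are interaction terms over 16 arrays. Figures were drawn with matplotlib 3.10.9 in Python 3.11.15.

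Precision is limited by having 4 arrays a group, and the median SE of a change was 0.045. The gene lists, comparisons and rules were chosen with earlier results of these data known. The rule named, per direction, the 12 genes of smallest p, up to 4 members per list and all hemocyte and basement membrane members, fixed metabolic and sex-linked tissue genes, and 5 genes per direction of each difference. It qualified 260 genes, of which 132 are named; for 27 of these the probe set may detect more than 1 transcript and 11 have other probe sets. For NimA, wb and trol another probe set had the opposite sign. Lists are described by counts and medians beside all genes.

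Replicate numbers 1 to 3 did not pair the arrays: the deviations of arrays with the same number correlated by 0.046, -0.070, -0.144 and 0.299. For number 4 the array of the same number was the closest match. Alternatives changed the dim filter, normalization, probe set choice, variance prior, array weights, arrays in the fit and a replicate block, left out each array in turn, or, chosen after seeing the data, left out both replicate 4 arrays or arrays holding opposite-sex transcripts.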

Additional observations from a re-analysis of the deposited data

Results flagged for a closer look

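Single arrays stood far from the other 3 of their group by Dixon's test at the 95% level, which sets the gap to the nearest value against the range, in 14 of 338 groups of 4 values (4.14%). At that level chance alone gives about 1 in 20 groups. Among HSD-fed sons of HSD-fed fathers these were NimB2 in replicate 3 (11.39), trol in replicate 4 (9.536), Mp in replicate 2 (9.499) and, in replicate 4, the means over the insulin and adipokinetic hormone list (9.885) and the purine and urate list (10.47). Among HSD-fed sons of CD-fed fathers they were Pvf2 (7.325), mag (11.01) and Npc2d (9.495) in replicate 1, the cuticle list mean (7.28) in replicate 2, Drsl5 (11.24) and the purine and urate list mean (10.52) in replicate 3, and CG5597 (11.28), NimB2 (11.47) and the yolk and germline list mean (7.361) in replicate 4.

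The change with the father's diet differed between HSD-fed and CD-fed F1 males, by limma's interaction test over all genes, in several blood cell and matrix genes. The difference was -0.5535 for NimC1, -0.7294 for NimC4, -0.5171 for NimB5, -0.4543 for PPO2 and -0.2493 for Ance, and -0.6307 for LanA, -0.4848 for vkg, -0.4399 for SPARC, -0.4328 for Col4a1 and -0.3454 for trol. All of these genes had a positive change in CD-fed sons, from 0.1288 (NimC4) to 0.2677 (SPARC). Of the 16 fits without 1 array, the call was lost in 10 for NimC1, NimC4, egr and TotC, 12 for PPO2 and 3 for MtnC, and with the mean of all probe sets the difference for trol was -0.086 (adjusted p = 0.398) and that for egr -0.2676 (adjusted p = 0.106). It was also lower in HSD-fed males for the receptor gene mthl2 (-1.085), the ligand egr (-0.2662), the adenosine deaminase Adgf-A (-0.5685), phu (-1.038), yellow-g (-0.8094), CG14125 (-0.6152), the trypsin epsilonTry (-0.6152), the odorant binding protein Obp99b (-0.523), CG8012 (-0.4475) and the stress gene TotC (-3.079). It was higher for CG8112 (0.7008), yip3 (0.5324), Obp28a (0.4725) and MtnC (0.3906). For CG14125, epsilonTry and Obp99b the changes in HSD-fed sons were within 0.05 of 0, and each rose in CD-fed sons, by 0.58, 0.57 and 0.55. Arrays 1 and 4 of the CD-fed sons of HSD-fed fathers held female transcripts; their part in these differences was not tested beyond the counts without them.

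Between HSD-fed F1 males and females, 9 named genes differed. Males were lower in Nepl15, a neprilysin-like gene (-0.4995), CG33110 (-0.6822), Alas, which makes the first product of heme synthesis (-0.2661), the maltase Mal-B1 (-0.5538), FASN2 (-0.3567) and MtnC (-0.4871), and higher in Drsl5 (0.477), the heterochromatin gene HP6 (0.281) and sug (0.6029). Of the 16 fits without 1 array, the call was lost in 11 for HP6, 10 for sug and 7 for MtnC, and in 0 for the other six. HP6 did not pass with the trended prior (adjusted p = 0.0833) or without the opposite-sex array (0.2852, adjusted p = 0.0609). Drsl5 was higher by 0.16 in sons and fell by 0.32 in daughters (adjusted p = 0.0306).

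Between HSD-fed F1 and F2 males, F1 males were lower in phu (-0.7844), Jon66Ci (-0.7716), yellow-g (-0.7787) and the yolk protein genes Yp1 (-1.83), Yp2 (-1.781) and Yp3 (-1.537), and higher in odd (0.5472), CG8329 (0.4913), the lipase gene dob (0.3856) and the clock gene tim (0.3666). Replicate 3 of the HSD-father group of F2 males lay 0.38 above the set's lowest array in female transcripts. The other 3 of the 4 arrays of that group lay over 0.5 above it. Without them 1 array was left in that group and none of these 10 calls passed, while the differences were -0.665 for phu, -0.7709 for Jon66Ci, -0.7364 for yellow-g, 0.6415 for odd, 0.461 for dob, 0.3897 for CG8329, 0.3118 for tim, and -1.228, -1.234 and -1.009 for Yp1, Yp2 and Yp3. The call was lost in 12 of the 16 fits without 1 array for tim, 10 for yellow-g and 0 for the other eight, and tim did not pass with the mean of all probe sets (0.457, adjusted p = 0.411).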

How the results depend on the processing

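Dim genes such as He, lz and Ndg had mean log2 values under 6. Quantile normalization, no filter on dim genes, the mean of all probe sets, array weights and the replicate block left 0 genes called. The calls of the trended robust prior (101 genes, 6 hemocyte, 6 basement membrane, 2 oxidative phosphorylation and 1 mitochondrial ribosome), the 80-array fit (33, of which 3 hemocyte and 5 basement membrane), the 50th percentile filter (21, of which 1 and 2 in these lists) and the 16-array fit (21, of which 0 and 1) are the exceptions; the cause was not tested. Genes at an unadjusted p under 0.05 numbered 563 and 847 in the 80- and 16-array fits. Higher oxidative phosphorylation genes numbered 35 (trended prior), 12 (80 arrays) and 8 (without both replicate 4 arrays); higher mitochondrial ribosome genes numbered 12 in the 80-array fit, in the 16-array fit and without both replicate 4 arrays, when 22 stood apart. Leaving out 1 array gave 0 to 2 called genes (0 to 2 lower), 10 to 27 and 8 to 23 higher genes of those lists, and 21 to 35 and 14 to 26 apart. Changes near 0 turned sign: NimA (-0.0173) and FASN1 (-0.00271) with quantile normalization, wb (0.00173) with the mean of probe sets, CG3999 (0.00274) with array weights, and wb (0.00177), Ndg (-0.00934), FASN1 (-0.00155), bmm (-0.00843), CG3999 (0.0124) and Yp2 (0.0379) without both replicate 4 arrays. Without 1 array the changes spanned -0.0686 to 0.13 for NimA, -0.0827 to 0.013 for wb, -0.00189 to 0.0282 for tobi, -0.0157 to 0.0393 for bmm, -0.0105 to 0.024 for Hex-C, -0.012 to 0.00401 for Pepck1, -0.0311 to 0.044 for CG3999, -0.0231 to 0.0244 for Mst87F, -0.18 to 0.13 for Yp1, -0.11 to 0.13 for Yp2 and -0.15 to 0.0797 for Yp3.

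For the difference between HSD-fed and CD-fed males, 678 genes were called with the trended prior, 202 with the replicate block, 135 without opposite-sex arrays and 173 to 603 without 1 array. Lower hemocyte genes numbered 2 with the block and 2 to 6 without 1 array, and lower basement membrane genes 9 (50th percentile filter), 8 (trended prior), 3 (without opposite-sex arrays) and 5 to 8 (without 1 array). The difference for sug spanned -0.0701 to 0.0954. Against females 230 genes (1 hemocyte) were called with the trended prior, 8 with the block, 52 without the opposite-sex array and 33 to 137 (0 to 1 hemocyte) without 1 array; NimC1 was -0.0223 without the opposite-sex array and spanned -0.0223 to 0.11, and Col4a1 -0.0148 to 0.0932. Against F2 males 23 were called with the trended prior, 1 without opposite-sex arrays and 9 to 32 (0 to 2 basement membrane) without 1 array. Within CD-fed males, females and F2 males, 59, 262 and 5 genes were called without those arrays. The replicate block changed no call among the 124 named genes of the main comparison. Of the named genes called in the differences it ended 6 of 24 calls against CD-fed males (NimC1, NimC4, Ance, egr, mthl2 and TotC). Against females it ended 6 of 9 (Alas, Drsl5, HP6, sug, Mal-B1 and MtnC) and against F2 males 2 of 10 (dob and tim). In the main comparison only replicate number 4 matched arrays to their closest partner.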

Other observations

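None of the gene lists below held a member that passed at an adjusted p under 0.05. Among 61 cytochrome P450 genes the median change was 0.02, with 4 higher and 2 lower at an unadjusted p under 0.05, and among 31 glutathione and glucuronosyl transferase genes it was 0.03, with 2 higher and 1 lower. The 25 lysosome and autophagy genes (median -0.02) held 5 lower and 0 higher members, and the 28 neuron genes (median -0.03) likewise 5 and 0, against 5.89% and 5.75% of all genes. The 28 chromatin genes and 17 piRNA pathway genes had medians of -0.02 each. The 24 cuticle genes had a median of -0.09, with 15 negative, 2 lower and 1 higher at that level. The 12 eggshell genes had a median of 0.09 with 9 positive, and the 16 yolk and germline genes one of 0.07 with 12 positive, each with 1 higher and 1 lower member.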
